A study of Mus musculus with 3 samples.

Results

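The 10 genes described here carry iron into cells, store it, let it out again or sense its level, and they were read from 16 probes (25 spots) among 41174 probes on each array. They are Trf, Tfrc and Slc11a2 for uptake, Fth1 and Ftl1 for storage, Slc40a1, Heph and Cp for export, and Aco1 and Ireb2 for regulation. Probes were taken by gene name, or by current symbol through the probe's accession or a synonym. Of the 10 genes, 9 entered the fit over 17707 genes, while Heph was not well above background on any array. The genes were brought together after the difference of Slc40a1 on these same arrays was known, so they count as selected on the KO 4 and KO 22 minus wild type values of Slc40a1. Every such value of the 10 is given as a description. Counts of limma calls among them are printed beside those of all genes, with nothing read from them.

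The samples were mouse embryonic stem (ES) cells, each measured on 1 single-colour Agilent oligonucleotide array. KO 4 and KO 22 carry the genotype label Tet1 KO and the remaining sample the label Tet1 WT, and V6.5, an ES cell line of a mixed background from 129 and C57BL6 mice, is the line named for all 3. TET1 is an enzyme that oxidises 5-methylcytosine in DNA. All were grown over irradiated feeder cells in medium with leukaemia inhibitory factor, and RNA was taken after preplating, a step that leaves many feeder cells behind on the plate. The sources used here do not say how the knockout was made or whether KO 4 and KO 22 are separate clones or cultures, and their design text speaks of mice. The wild type has no replicate.

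Most cells take up iron as transferrin-bound ferric iron through the transferrin receptor, move it out of the endosome through a divalent metal transporter, and keep what they do not use inside ferritin shells. Ferroportin, the product of Slc40a1, is the only exporter of iron known in mammals, and multicopper oxidases act beside it. Iron regulatory proteins bind iron-responsive elements in the messages of these genes when iron is scarce. There they hold back translation of ferritin and ferroportin and shield the receptor message from decay, so part of this control leaves no trace in RNA levels.

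Probe intensity was scaled by taking log2 of the processed spot intensity relative to the 75th percentile of its own array, and differences are knockout minus wild type on that scale. The 75th percentile was 717.7 on KO 4, 644.9 on KO 22 and 623.7 on wild type, so raw intensities of an unchanged gene are somewhat higher on KO 4. Between 62.2% and 62.8% of spots were well above background and 0 were saturated. The probe for Tet1 read 214 on KO 4 and 195 on KO 22, against 721 on wild type. Which part of the gene the knockout removes or alters, and so what that probe can check, is not known here. All 11 ES cell markers measured, among them Pou5f1, Sox2 and Nanog, were well above background on the 3 arrays.

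Slc40a1 stood apart from the other iron genes. The probe read 1326 on KO 4 and 1155 on KO 22, against 293 on wild type, while the mean difference of both knockout arrays from wild type was at most 0.44 in size on the log2 scale for the other 8 genes tested. Slc40a1 was the 1 gene of the 9 that differed at least 2-fold on KO 4 and on KO 22 alike, where 3.01% of all genes did (1.45% higher and 1.56% lower). For 7 of the 9 the mean difference was within 0.25 of 0, as for 56% of all genes, and 0 of the 9 differed 2-fold between KO 4 and KO 22, where 1.42% of all genes did. The median difference of the 9 was -0.03 on KO 4 and 0.05 on KO 22, beside medians of -0.04 and -0.02 over all 17707 genes.

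**Figure D1:**
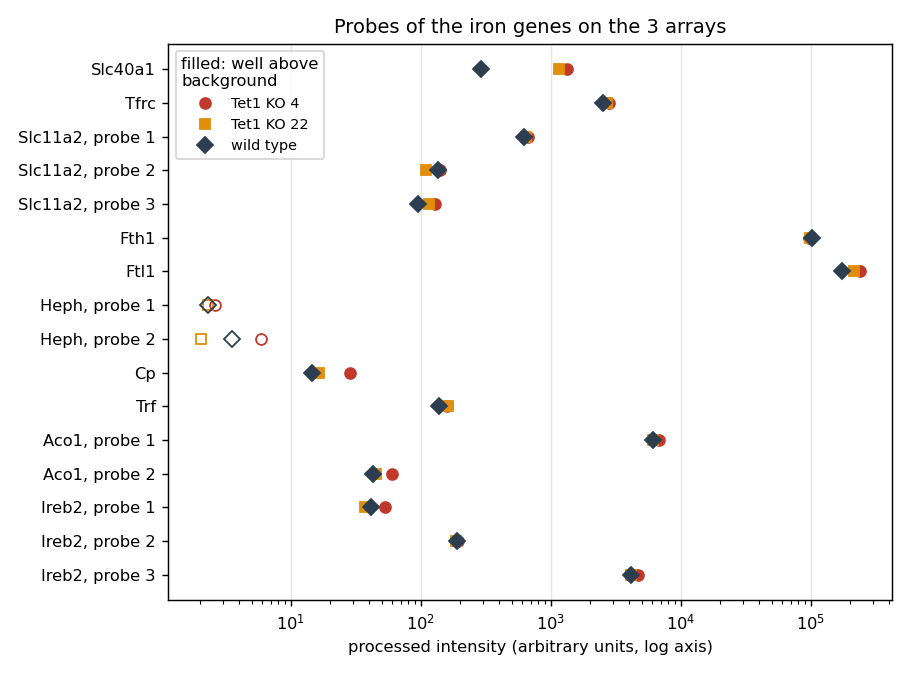
Processed intensity (log axis, arbitrary units) of the 16 probes of the iron genes on the KO 4, KO 22 and wild type arrays, with open symbols where a spot was not well above background; probes of 1 gene are numbered by position on the chromosome. The knockout arrays lie at 1326 and 1155 for Slc40a1, against 293 on wild type, and symbols nearly coincide for most other probes.

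TET1 acts on methylated CpG sites, so the CpG content of the promoters was read from RefSeq windows of the GRCm38.p6 assembly for the 250 bases before each annotated start. The table matched 6 of the 10 genes with 9 windows, and Slc40a1, Slc11a2, Heph and Trf were not among them. The windows of Tfrc, Ftl1 and Aco1 are shown because they span a range of CpG content among genes whose mean difference between the genotypes was at most 0.24 in size. Each is printed 5′ to 3′ on the strand of its gene, with every CG in capitals.
Tfrc, chr16:32608646-32608895, plus strand: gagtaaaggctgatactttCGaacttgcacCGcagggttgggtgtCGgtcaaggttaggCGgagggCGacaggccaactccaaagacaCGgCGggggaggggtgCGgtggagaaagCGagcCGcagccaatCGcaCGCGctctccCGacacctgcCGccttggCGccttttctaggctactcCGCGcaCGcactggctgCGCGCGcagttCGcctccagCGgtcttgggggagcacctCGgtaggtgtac
Ftl1, chr7:45459887-45460136, minus strand: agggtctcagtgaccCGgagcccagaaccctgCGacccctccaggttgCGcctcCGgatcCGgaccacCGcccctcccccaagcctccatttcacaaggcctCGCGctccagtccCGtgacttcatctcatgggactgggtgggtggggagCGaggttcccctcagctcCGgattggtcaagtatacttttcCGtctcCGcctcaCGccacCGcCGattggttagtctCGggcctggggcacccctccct
Aco1, chr4:40143015-40143264, plus strand: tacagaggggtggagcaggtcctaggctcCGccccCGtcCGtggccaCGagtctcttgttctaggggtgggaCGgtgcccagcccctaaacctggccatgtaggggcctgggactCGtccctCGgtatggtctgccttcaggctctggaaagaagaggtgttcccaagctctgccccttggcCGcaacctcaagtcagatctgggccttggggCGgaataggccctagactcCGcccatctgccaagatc

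The printed windows hold 25 CpG sites for Tfrc, 17 for Ftl1 and 10 for Aco1, each above the median of 6 over 32851 windows in the table. Tfrc has 2 annotated starts, and the window printed is that of the upstream one. The window before its downstream start holds 23 sites and is not printed. The window of Ireb2 holds 24. Fth1 has 2 annotated starts, with 3 CpG sites before the upstream one and 21 before the downstream one. Both windows of Cp, the gene for ceruloplasmin, hold 2 sites, the lowest count among the iron genes matched. Both strands were also searched for ACGTG, the core of the element bound by hypoxia-inducible factors, and for TGACNNNGC, the core of the antioxidant response element bound by NRF2; a match to the first can lie within the E-box CACGTG. The first motif was found in 1 of the 9 windows, before the downstream start of Tfrc, and in 16.6% of all windows. TGACNNNGC was found in 0 of the 9 and in 10.2% of all. A missing match says only that these letters are not in the window.

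In iron uptake, the brightest probe of each of the 3 genes lay within 0.07 of wild type in the mean of both knockout arrays. Trf encodes transferrin, the plasma carrier of ferric iron. Its probe read 159 on KO 4 and 161 on KO 22, against 139 on wild type. After scaling, KO 4 lay 0.02 below wild type and KO 22 lay 0.16 above it, so the arrays of the knockout label fell on both sides of the wild type value. The mean difference was 0.07 ± 0.12 (SE from limma, n = 2 against 1, as for all errors of differences that follow), and -0.77 with normexp, a background correction that fits a model to all spots and that also moved the median of all genes to -0.20. The Trf probe spans 616 bases of chromosome 9 on the mm7 build (102929342 to 102929957, minus strand), more than its own length, so it crosses at least 1 intron of the genome sequence.

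Tfrc, the transferrin receptor, is the best measured of these genes because its probe is printed in 10 spots per array. That probe lies on chromosome 16 (32306693 to 32306752, plus strand, mm7). The spots ran between 2616 and 2927 with a median of 2858 on KO 4, between 2536 and 2869 with a median of 2723 on KO 22, and between 2413 and 2679 with a median of 2520 on wild type. Ranges of single spots therefore overlapped among all 3 arrays. After scaling, the log2 level was 1.98 on KO 4 and 2.07 on KO 22, against 2.02 on wild type, which places wild type between the knockout arrays. The SD among spots of 1 array was 0.05 to 0.06 on the log2 scale, and the mean difference was 0.00 ± 0.10 (0.41 with normexp). Spots of 1 array share their RNA and are not replicates of a genotype.

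**Figure D2:**
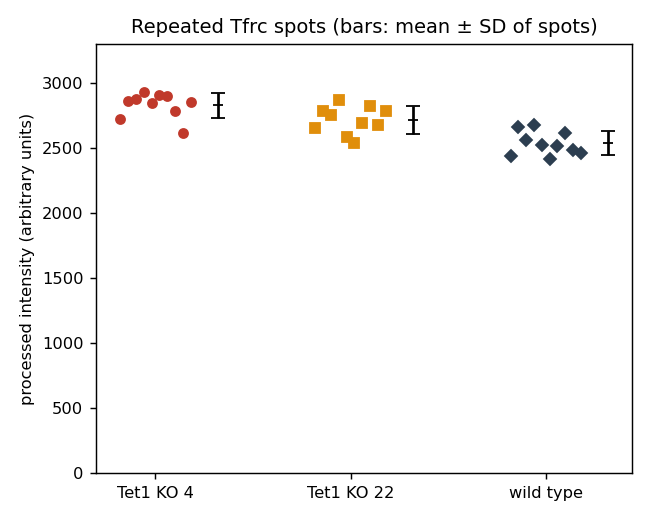
Processed intensity of the 10 repeated Tfrc spots on the KO 4, KO 22 and wild type arrays before scaling, with the mean and SD of the spots beside each set (2830 ± 97, 2716 ± 106 and 2535 ± 92). The order of the unscaled means follows the order of the arrays' 75th percentiles, and after scaling wild type lies between both knockout arrays.

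Slc11a2, which encodes the divalent metal transporter DMT1, was read by 3 probes along chromosome 15 (minus strand, mm7). The brightest probe, at 100373147 to 100373206, gave 666 on KO 4 and 645 on KO 22, against 626 on wild type. Its difference was -0.06 ± 0.10, with KO 22 level with wild type. The second probe, at 100378161 to 100378220, read 141 on KO 4 and 109 on KO 22, against 137 on wild type, a difference of -0.27 ± 0.14. The third, at 100395330 to 100395389, read 130 and 115 on KO 4 and KO 22, against 95.2 on wild type, a difference of 0.24 ± 0.09. The probes of Slc11a2 thus did not share a direction. The gene is known to make messages with different ends, only some of which carry an iron-responsive element, and which of them each probe reads was not determined.

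Storage was represented by both ferritin subunits. Fth1 encodes the heavy chain, which oxidises ferrous iron. Its probe, on chromosome 19 (9665120 to 9665179, plus strand, mm7), gave 96854 on KO 4 and 98499 on KO 22, against 102292 on wild type. Both knockout arrays were a little lower than wild type, at -0.28 and -0.10, with a mean of -0.19 ± 0.12, and the sign turned to 0.34 with normexp.

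Ftl1 encodes the light chain, which aids mineral formation in the shell. Its intensity was 237733 on KO 4 and 214661 on KO 22, against 175732 on wild type. The knockout arrays lay at nearly 1 value above wild type, 0.23 and 0.24, with a mean difference of 0.24 ± 0.09, or 1.18-fold. The sign was the same under every alternative run. The probe lies on chromosome 7 (41635335 to 41635394, minus strand, mm7), and the array also carries a probe named Ftl2, now the pseudogene Ftl2-ps. Ftl2-ps read 271360 on KO 4 and 280338 on KO 22, against 230387 on wild type, a difference of 0.13 ± 0.13. Near-identical ferritin copies can share probe signal, so the level of Ftl1 cannot be separated from theirs.

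Export held the gene with the largest difference. The single probe of Slc40a1 lies on chromosome 1 (46145061 to 46145120, minus strand, mm7) and was well above background on all 3 arrays, with no outlier flag and no surrogate value. On the scaled log2 level KO 4 stood at 0.89 and KO 22 at 0.84, a mean of 0.86 ± 0.03 (SD, n = 2), against -1.09 on wild type. Both knockout arrays lay above the single wild type value, as for 38% of all genes, and differed from each other by 0.04. The mean difference was 1.95 ± 0.09, or 3.88-fold. With 16400 genes measured above background on the 3 arrays ranked by the smaller of their KO 4 and KO 22 differences, Slc40a1 was number 9 from the top.

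Among the 22 spots within 2 rows and columns of that of Slc40a1 on the array, the median difference was -0.05, with 2 spots at least 2-fold higher and 1 at least 2-fold lower in the knockouts. As there is 1 wild type array, its own sample-to-sample spread is not known. The genes whose pair of differences lay closest to that of Slc40a1, by Euclidean distance over both knockout arrays, were Ccdc184 (distance 0.05), Rab6b (0.21), Tmprss2 (0.24), Klhl13 (0.29) and Vnn1 (0.31). Both differences share the wild type array.

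**Figure D3:**
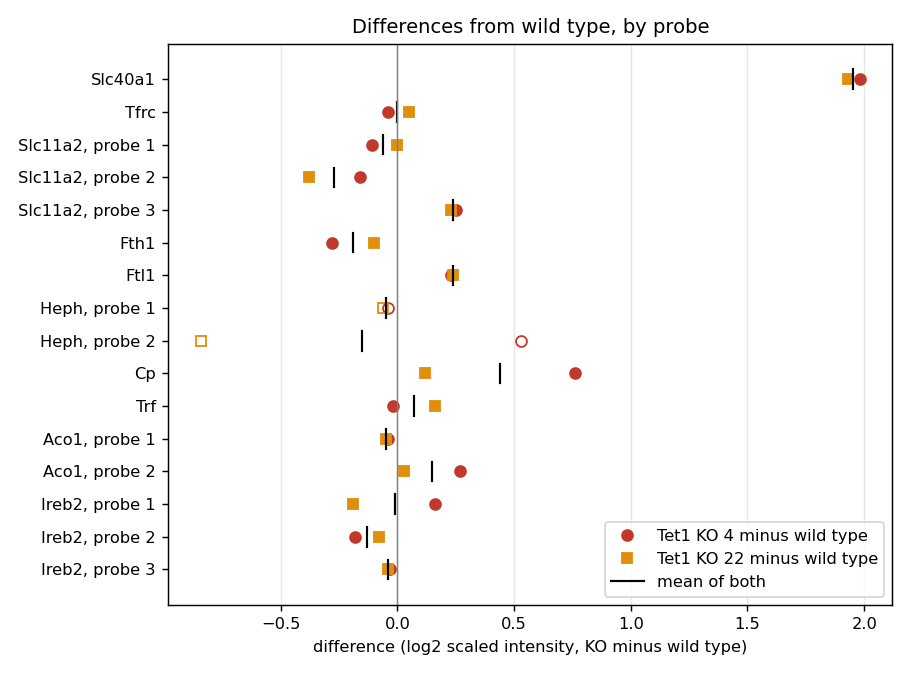
Difference from wild type (log2 scaled intensity) of KO 4 and KO 22 for each probe of the iron genes, with a bar at the mean of both and open symbols for the Heph probes, which were not well above background. Slc40a1 lies at 1.98 and 1.93, and every probe measured above background for the other genes lies between -0.38 and 0.76.

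Heph and Cp encode hephaestin and ceruloplasmin, multicopper ferroxidases that work beside ferroportin. Heph was not well above background on any array. Its probes lie on the X chromosome (91858590 to 91858649 and 91901579 to 91901638, plus strand, mm7). Its probe for transcript variant 1 read 5.91 on KO 4 and 2.05 on KO 22, against 3.55 on wild type, and that for variant 2 read 2.6 and 2.3 on KO 4 and KO 22, against 2.32 on wild type. None of these 6 readings was well above background, and no fold is given.

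Cp was dim and its knockout arrays disagreed. Its probe, on chromosome 3 (19721093 to 19721152, plus strand, mm7), read 28.4 on KO 4 and 16.4 on KO 22, against 14.6 on wild type, with a scanner error of 13.0% on KO 4, 16.3% on KO 22 and 17.7% on wild type. KO 4 lay 0.76 above wild type and KO 22 only 0.12, and the mean difference was 0.44 ± 0.33, or -1.80 with normexp. The gap between KO 4 and KO 22 was 0.64, against a standard deviation of 0.33 for that gap over all genes. Fibroblasts are the usual feeder cell type, and their markers are given beside this value. The median over their 14 tested genes was 0.71 for KO 4 and -0.08 for KO 22 minus wild type, with Thy1 (-0.14) and Pdgfra (-0.60) lower on KO 4. Nothing is read from limma calls for these 14, since the fit rests on 1 wild type array. Their summed level was 25.39 on KO 4 and 19.68 on KO 22, against 21.42 on wild type, in units of each array's 75th percentile. The part of feeder RNA in the Cp value was not tested, and in bulk RNA fewer cells of a type and less RNA per cell cannot be told apart.

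The brightest probes of both regulators lay within 0.05 of wild type in the mean of both knockout arrays. Aco1 encodes cytosolic aconitase, which becomes iron regulatory protein 1 when it loses its iron-sulfur cluster. Its brighter probe, on chromosome 4 (40336547 to 40336606, plus strand, mm7), read 6805 on KO 4 and 6078 on KO 22, against 6083 on wild type. The scaled difference was -0.05 ± 0.09, with its sign turned to 0.01 after quantile normalization and to 0.45 with normexp. Its dimmer probe gave 60.1 on KO 4 and 45.6 on KO 22, against 43.3 on wild type, a difference of 0.15 ± 0.15.

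Ireb2 encodes iron regulatory protein 2, which is degraded when iron is plentiful. The brightest of its 3 probes, on chromosome 9 (54941480 to 54941539, plus strand, mm7), read 4680 on KO 4 and 4170 on KO 22, against 4152 on wild type. Its difference was -0.04 ± 0.09, with its sign turned to 0.03 after quantile normalization and to 0.40 with normexp. The other probes of Ireb2 had differences of -0.13 ± 0.11 and -0.01 ± 0.20. For both regulator genes the brightest probe separated KO 4 from KO 22 by 0.01 after scaling.

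Counted over the 9 genes tested, 3 were higher and 4 lower than wild type on both knockout arrays, and for 2 the arrays differed in sign; over all genes these shares were 38%, 45.5% and 16.5%. Limma called 0 of the 9 at an adjusted p below 0.05 (1 at an unadjusted p below 0.05), where it called 0.356% of all genes (28.2% unadjusted). The settings that called 1 of the 9, Slc40a1, were an intensity trend in the variance model, the series matrix values, a filter that requires all 3 arrays and normexp without the 5 spots farthest below background. They called 19%, 5.47%, 5.66% and 18.7% of all genes. Normexp on all spots called 8 of the 9 and 78.2% of all genes. The contrast was known when the genes were chosen, so nothing is read from these counts.

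**Figure D4:**
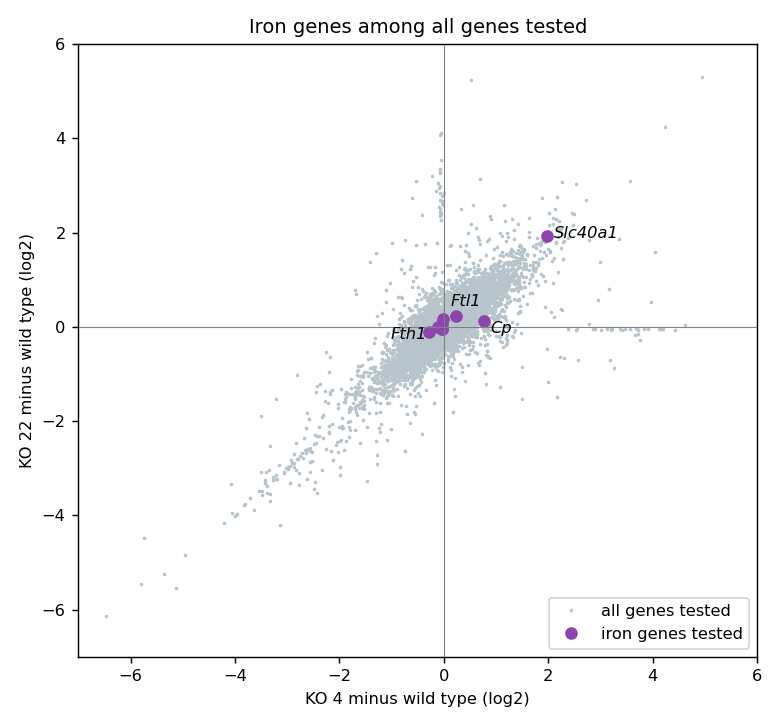
Difference of KO 4 from wild type against that of KO 22 (both log2) for all 17707 genes tested, with the 9 iron genes as large points. Slc40a1 lies at 1.98 and 1.93, Cp lies off the diagonal at 0.76 and 0.12, and the other iron genes lie near the origin; both axes share the wild type array.

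Other genes of iron metabolism were counted in 7 lists that hold 97 further genes, of which 94 were tested. Of the 94, 43 were higher and 37 lower on both knockout arrays, beside 38% and 45.5% of all genes. The same shares of all genes stand beside the counts of each list below. The median difference of the 94 was 0.00, beside -0.03 over all genes. Limma called 0 higher and 1 lower, beside 0.0339% higher and 0.322% lower over all genes. Nothing is read from unadjusted p values of the 94, since the fit rests on 1 wild type array. With an intensity trend there were 9 higher and 10 lower, a share near the 19% of all genes. The gene called was Cubn, an endocytic receptor that can carry transferrin into cells, which fell to 49 on KO 4 and 40 on KO 22, against 447 on wild type (-3.46 ± 0.11, limma adjusted p = 0.0346). Cubn is also a marker of visceral endoderm.

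Among 12 tested genes of iron import and reduction, 8 were higher and 4 lower on both knockout arrays, with a median difference of 0.32. Slc39a8, a metal importer of the ZIP family, read 69.5 on KO 4 and 55.4 on KO 22, against 27.6 on wild type (1.05 ± 0.12). Cybrd1, the ferrireductase of the gut surface, read 35.3 and 32.2 on KO 4 and KO 22, against 17.7 on wild type (0.80 ± 0.09). Neither passed over all genes, with limma adjusted p of 0.1 and 0.0999, and with an intensity trend Slc39a8 passed (0.019) and Cybrd1 did not (0.0625). Tfr2, the second transferrin receptor, stood lower, at 194 on KO 4 and 205 on KO 22, against 309 on wild type (-0.75 ± 0.15, limma adjusted p = 0.118), and was named after its value was seen because it is the relative of Tfrc. With an intensity trend Tfr2 passed, with a limma adjusted p of 0.0176.

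The hepcidin axis is the hormone system that removes ferroportin from the cell surface. Of its 11 genes, 7 were higher and 3 lower on both knockout arrays, with a median of 0.32. Hamp and Bmp2, counted as higher, were well above background on the knockout arrays alone. Tmprss6, counted as lower, was so on wild type alone. The filter itself thus helped to set these counts and this median. Hamp, which encodes hepcidin itself, read 19.8 on KO 4 and 18.4 on KO 22, against 8.02 on wild type, where it was not well above background. In the mean of both knockout arrays it was at least 1.79-fold higher. Its limma adjusted p of 0.0908 did not pass and carries little, since Hamp entered the fit only through the knockout arrays. Tmprss6, a protease that lowers hepcidin, lay the other way, at 11.6 on KO 4 and 8.02 on KO 22, against 19.8 on wild type. Tmprss6 was not well above background on either knockout array. The mean of both knockout arrays was at least 2.03-fold lower, with a difference of -0.98 on KO 4. Tmprss6 entered the fit through wild type alone and did not pass. Hamp, Tmprss6 and Bmp2 were named after their values were seen. The Hamp bound sets the knockout mean against the lowest wild type signal that was well above background. The receptor genes Bmpr1a and Acvr1, which relay the signal for hepcidin, stood at 0.69 ± 0.09 and 0.68 ± 0.09, and Hfe, a partner of the transferrin receptors, at -0.70 ± 0.09. These 3 did not pass, each with a limma adjusted p of 0.101, and with an intensity trend Bmpr1a (0.00753) and Acvr1 (0.00905) passed and Hfe (0.119) did not.

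Of 12 genes of cellular iron handling 6 were higher and 5 lower, with a median of 0.04. They include Ncoa4, the receptor for ferritin breakdown, at -0.09, the iron chaperone gene Pcbp1 at -0.04, and Fbxl5, the iron-sensing subunit that marks iron regulatory proteins for degradation, at 0.18. The first places on that list went to Hfe, to Rab12, a small GTPase of receptor degradation, at 0.55 ± 0.09, and to Heca at 0.39 ± 0.10. With an intensity trend Rab12 passed (limma adjusted p = 0.0111) and Heca did not (0.16). Ncoa4, Pcbp1 and Fbxl5 were named after their values were seen.

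Of 20 genes of haem synthesis, transport and breakdown 10 were higher and 7 lower, with a median of 0.04. Flvcr2, a transporter of the haem exporter family, read 860 on KO 4 and 760 on KO 22, against 383 on wild type (0.95 ± 0.09, limma adjusted p = 0.097). Blvra, biliverdin reductase, stood at 0.50 ± 0.11 and Uros, an enzyme of haem synthesis, at -0.40 ± 0.09. None of these 3 passed, and with an intensity trend Flvcr2 (limma adjusted p = 0.00404) and Blvra (0.0194) passed and Uros (0.0576) did not. Of 22 genes of iron-sulfur cluster assembly 5 were higher and 13 lower, with a median of -0.06, and the largest differences in size were those of Lyrm4 (-0.40), a partner of the cysteine desulfurase, Mms19 (-0.35), which serves cytosolic and nuclear targets, and Nfu1 (-0.35), a late carrier of mitochondria. With an intensity trend Lyrm4 (limma adjusted p = 0.0252) and Mms19 (0.0286) passed and Nfu1 (0.0652) did not.

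NRF2 and BACH1 are regulators that raise and repress transcription of ferritin and ferroportin genes. On their list of 12 genes, 5 were higher and 4 lower. Bach1 stood at -0.44 ± 0.09, with 516 on KO 4 and 446 on KO 22, against 595 on wild type. Nfe2l2, which encodes NRF2, stood at 0.24 ± 0.09, and G6pdx, an enzyme of NADPH supply, at -0.46 ± 0.11. Hmox1, a common target of both, stood at -0.17 ± 0.14 and was named after its value was seen. None of the 4 passed, with limma adjusted p between 0.126 and 0.476, though with an intensity trend Bach1 passed at 0.0269 and G6pdx at 0.0194. The median of the list was -0.00. Of 8 other transcripts with an iron-responsive element 3 were higher and 3 lower, with a median of -0.02. Cdc42bpa stood at 0.49, Hao1 at -0.45 and Cdc14a at 0.10, and with an intensity trend Cdc42bpa alone of these 3 passed (limma adjusted p = 0.0303).

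**Figure D5:**
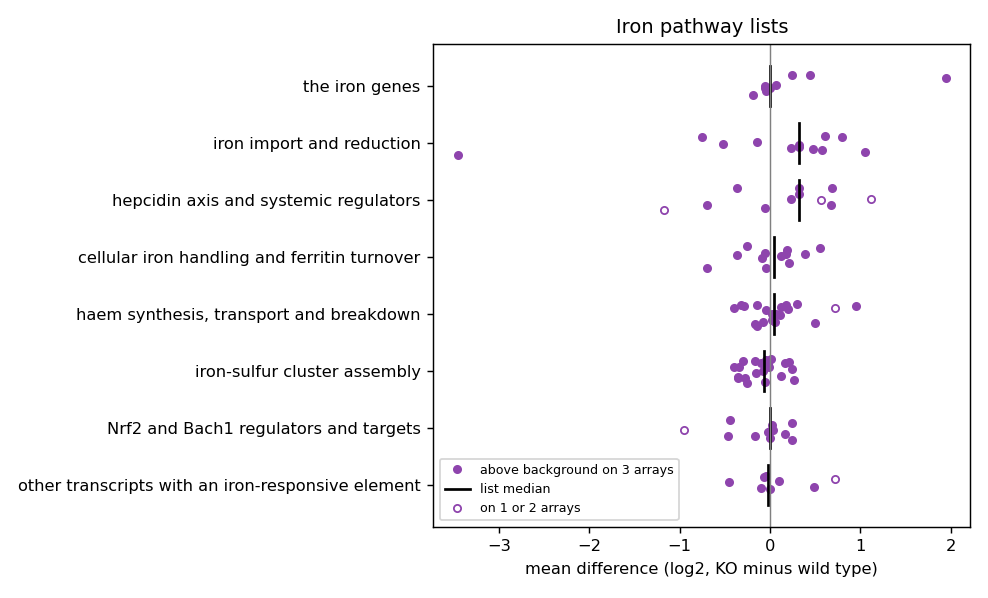
Mean difference from wild type (log2, knockout minus wild type) of each tested gene in the iron genes and in the 7 iron pathway lists, with open points for genes not above background on all 3 arrays and a bar at each list's median. The list medians lie between -0.06 and 0.32, Slc40a1 is the point at 1.95 in the top row, and Cubn is the point at -3.46.

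Cell types other than ES cells can carry Slc40a1, so their markers were read beside it. Of 10 macrophage markers 6 were tested, and Ptprc, Adgre1, Tyrobp and Cd163 were not above background on any array. The macrophage receptor gene Csf1r read 34.2 on KO 4 and 27.8 on KO 22, against 7.74 on wild type. In the mean of both knockout arrays Csf1r was at least 2.90-fold higher. Cd14 stood at 0.91 ± 0.09 and Cd68 at -0.22 ± 0.15. Aif1, another macrophage gene, read 39.8 on KO 4 and 23.2 on KO 22, against 12.6 on wild type. KO 4 lay 1.45 and KO 22 lay 0.83 above that wild type reading, a mean of 2.21-fold. Over the 6 the median difference was 0.77 on KO 4 and 0.57 on KO 22. Of them 3 were higher and 1 lower on both, beside 38% and 45.5% of all genes. Their summed level, most of which is the Cd68 signal, was 2.66 on KO 4 and 3.02 on KO 22, against 3.10 on wild type, in units of the 75th percentile. Csf1r and Aif1 were not well above background on wild type and entered the limma fit only through the knockout arrays, where they are high. That fit also rests on 1 wild type array, so nothing is read from it for these 6. The macrophage medians and counts above include Csf1r and Aif1, so the filter itself helped to set them. For Fcer1g (-0.02 on KO 4 and 0.31 on KO 22) and Lyz2 (0.63 and -0.55) the knockout arrays differed in sign. The part of macrophage RNA in the Slc40a1 value was not tested.

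Of 17 markers of visceral endoderm and hepatocytes 11 were tested. Of these, 2 were higher and 9 lower on both knockout arrays, beside 38% and 45.5% of all genes. The largest mean differences were those of Cubn (-3.46), Foxa2 (-1.63) and Sox17 (-1.36), and the 2 higher genes were Rbp4 (0.54) and Amn (0.39). Their summed level was 3.56 on KO 4 and 3.61 on KO 22, against 4.75 on wild type, and Afp, Ttr, Alb, Apoa1, Apoa4 and Apob were not above background on any array. Of 11 trophoblast markers 10 were tested, with 9 higher and 1 lower on both knockout arrays, beside 38% and 45.5% of all genes. Their summed level was 234.0 on KO 4 and 206.5 on KO 22, against 129.7 on wild type. Most of it is the signal of the keratin genes Krt18 and Krt8, which were bright on wild type too. Krt18 read 94048 on KO 4 and 76922 on KO 22, against 40731 on wild type. Krt8 read 60561 and 43998 on KO 4 and KO 22, against 32532 on wild type. The largest mean differences of the list were those of Cited1 (1.47), Eomes (1.27) and Hand1 (1.25), and Cdx2 stood at 0.97. Over the 10 the median difference was 0.84 on KO 4 and 0.86 on KO 22. The 1 lower gene was Ascl2 (-0.45 ± 0.09). The limma fit rests on 1 wild type array, and nothing is read from its calls for these 10. Their part in the Slc40a1 value was not tested. The part of feeder RNA in the Slc40a1 value was not tested either; the fibroblast medians are given beside Cp.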

How the data were processed

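RNA of 3 mouse ES cell samples was measured on 1 Agilent array each. The scanner files hold intensity values that the authors obtained with Agilent Feature Extraction 10.1.1.1, per the file headers, by subtracting and detrending the background of each array and putting surrogates in place of dim values. A median of 5.52 is common to the columns of log2 values in the deposited series matrix, whose background correction is not known. Limma is named, with no version, in the submitters' processing notes.

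Here the processed intensity was divided by each array's 75th percentile over the 43379 non-control spots and taken to log2. Outlier spots were left out and repeated spots averaged. Of 41174 probes, 32716 (79.5%) were matched to a gene of the GRCm38.p6 table; positions of probes are the files' own, on mm7. Testing needed a probe well above background on 1 array or more, and a gene took its brightest such probe. The comparison of knockout with wild type used limma 3.58.1 under R 4.3.3 (lmFit, eBayes, Benjamini-Hochberg, threshold 0.05). Each gene has 1 residual degree of freedom, or 3.03 after moderation, and its error for the single wild type array is taken from the spread of the knockout arrays. Moderation sets 0.09 as the smallest standard error. The errors cover only the spread between the knockout samples, which may be technical. For single probes beyond the brightest, the fit ran over all probes. Precision is limited by the number of arrays. The model fits were tested on simulated data. There the main fit called 0 of 67 genes changed by 1 on the log2 scale and 37 of 67 changed by 2. A gene that did not pass may therefore still differ by such sizes.

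Members, lists and tests were chosen with earlier results of these data known. The text names all 10 genes, the 3 largest differences of each pathway list (among genes measured on every array and on 1 side of wild type in both knockouts), defining markers, the 5 genes closest to Slc40a1, and those said to be named after their values were seen. The alternatives were quantile normalization, normexp background correction (offset 50) with and without spots more than 50 below their background, other filters on dim probes, the mean over probes, the series matrix, an intensity trend, and leaving out each knockout array.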

Additional observations from a re-analysis of the deposited data

How the results depend on the processing

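The difference of Slc40a1 kept its sign under every alternative run. It was 1.38 with normexp background correction, 1.77 with that correction once 5 spots far below their background were left out, 1.92 in the series matrix values, and 1.93 to 1.98 when 1 knockout array was left out. Normexp on all spots moved the median of all genes to -0.20, against -0.06 without the 5 spots and -0.03 as reported. It also turned Cp to -1.80, Trf to -0.77 and Fth1 to 0.34, and put Tfrc, Aco1 and Ireb2 at 0.41, 0.45 and 0.40; without the 5 spots these stood at 0.08, 0.02, -0.20, 0.03, -0.03 and -0.05. Members that differed at least 2-fold on KO 4 and on KO 22 numbered 2 with normexp on all spots and 1 under the other alternatives, including each knockout array alone. Limma called 63 genes as reported. It called 13844 with normexp, 3306 with normexp without the 5 spots, 928 with a filter requiring all 3 arrays, 969 in the series matrix values, 3371 with an intensity trend and 0 of 27654 without a filter. Members called numbered 0 as reported, beside 0.356% of all genes, and 8 with normexp on all spots, beside 78.2%. They numbered 1 with normexp without the 5 spots (18.7% of all genes) and 1 with the filter requiring all 3 arrays (5.66%). They also numbered 1 in the series matrix values (5.47%) and 1 with an intensity trend (19%). Nothing is read from these member counts. No cause of the shifts between settings was tested. No paired analysis was possible because the knockout and wild type samples share no replicate number. With 1 wild type array its spread is unmeasured, and the dim genes Heph, Cp and Hamp lie at or near background.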

Other observations

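Other members of the ferritin family were read on the arrays besides Fth1 and Ftl1, and their values were looked up after those of the 10 genes. Fthl17e, an X-linked relative of the ferritin heavy chain, read 617 on KO 4 and 762 on KO 22, against 764 on wild type, so KO 4 lay 0.51 below wild type and KO 22 only 0.05 below it. Ftmt, the mitochondrial ferritin, had 1 probe that was not above background on any array and another that read 14.1 on KO 4 and 13 on KO 22, against 10.9 on wild type, close to the lowest signals well above background (11.28, 9.86 and 9.75).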
